A study of Caenorhabditis elegans with 15 samples.

Results

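The small protein-coding genes spig-4, spig-5, F14D7.14 and spig-6 lie on chromosome V of the nematode Caenorhabditis elegans. They were selected on measured values: each averaged higher in every mutant of the series than in wild type. They are 4 of 46926 genes in the deposited table, found by matching its gene identifiers to symbols of the WBcel235 annotation. Because the mutant-to-wild-type ratios chose these genes, those ratios are given as a description with no test.

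The series measured polyA RNA of whole animals at the L4 stage, the last larval stage, in 15 libraries. Of these, 6 came from wild-type N2 and the other 9 from mutants, 3 of each: the label mec-8 (e398) KO is shortened here to e398, the label u74 KO to u74, and the label u218 KO to u218; every library carries the strain label N2. The u74 and u218 labels name no gene, and the title of the series concerns splicing regulated by mec-8. The labels do not say how many animals or cultures stood behind a library, so the replicate spread may be technical.

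The mec-8 gene encodes a splicing regulator that binds RNA and sets which exons are joined in several worm tissues, and it is known for its role in touch receptor neurons. Small gene families in C. elegans often sit as neighbours that arose by duplication, and such copies can share sequence. The molecular role of the spig proteins is not described here, since none could be stated with certainty.

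The deposited values are normalized counts averaged over the libraries of a genotype, so 1 average stands for 6 wild-type or 3 mutant libraries. Whole reads per library could be worked back from an average where a single combination of reads gave the printed digits. This succeeded for F14D7.14 in all 4 genotypes and for spig-6 in the 3 mutants. It was not attempted for spig-4 and spig-5, whose averages lay above the limits set for the search in every genotype. For spig-6 in wild type, 29 combinations fitted, so none could be chosen. The recovered libraries are numbered by falling size factor within a genotype, since their label numbers are not known. The files give size factors but no read totals: N2 ranged over 0.471 to 1.82, u74 over 1.46 to 1.95, u218 over 0.831 to 1.99 and e398 over 0.476 to 0.685. A pair of libraries stood apart. Library 3 of u218 was 4-fold or more away from its companions for 28.9% of 5983 genes, and library 2 of e398 for 13.7% of 8622. mec-8 itself averaged 1956 normalized counts in N2, 1069.7 in e398, 2239 in u74 and 3620 in u218. Labels do not give the kind of lesion, so these levels did not check the labels.

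Of these genes, 3 form a tight group, which spig-6 does not join. In WBcel235, spig-4 (WBGene00008794) occupies 14306468 to 14306871 on the minus strand, spig-5 (WBGene00008797) 14308464 to 14308877 on the plus strand, and F14D7.14 (WBGene00045490) 14309932 to 14310318 on the plus strand. From the start of spig-4 to the end of F14D7.14 the group spans 3851 bases, with 1592 bases between the first pair and 1054 between the second. spig-6 (WBGene00010202; 16481580 to 16482059, plus strand) lies 2.17 Mb further along, so the word cluster describes only the other members.

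The annotated products are all short. The coding sequence is 309 bases in both spig-4 and spig-5, and 339 bases in both F14D7.14 and spig-6. spig-4, spig-5 and F14D7.14 each have 2 exons and 1 transcript, joined over an intron of 45 bases, with 233 coding bases in the last exon. Both transcripts of spig-6 have an intron of 53 bases and 275 coding bases in the last exon. spig-4 has an annotated 5′ UTR of 11 bases and a 3′ UTR of 36 bases, and spig-5 has 21 and 36. F14D7.14 has no annotated UTR, so reads from its transcript ends would lie outside its annotated exons. None of the 4 overlaps another annotated gene, but the 3′ end of spig-4 is 21 bases from that of F14D7.6 on the other strand, and F14D7.14 is 27 bases from ddn-3. Strandedness and the annotation used for counting were not given, so reads running past these ends could be assigned to either partner.

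Transcripts of spig-4 were scarce in wild type and abundant in e398. Its averages were 138 normalized counts in N2, 10369.6 in e398, 1314.7 in u74 and 1010.2 in u218. That e398 average was 74.9 times that of N2, against 9.50 times in u74 and 7.30 times in u218. On the log2(average + 1) scale these ratios were 6.22, 3.24 and 2.86.

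spig-5 went from 52.9 normalized counts in N2 to 10222 in e398, 1526 in u74 and 1077 in u218. Folds over N2 were 193, 28.8 and 20.4, and the log2 ratios 7.57, 4.82 and 4.32. Its e398 ratio was the highest of all 17398 genes considered there, meaning genes with at least 20 normalized counts in either column. F14D7.14 and spig-4 stood at ranks 2 and 3 of the same comparison. These ranks describe the averages that chose the genes. F14D7.14, at 6.80 in N2, met the floor there only through e398. With a pseudocount of 10 its e398 ratio, 5.42, was below the 6.13 of spig-4.

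**Figure D1:**
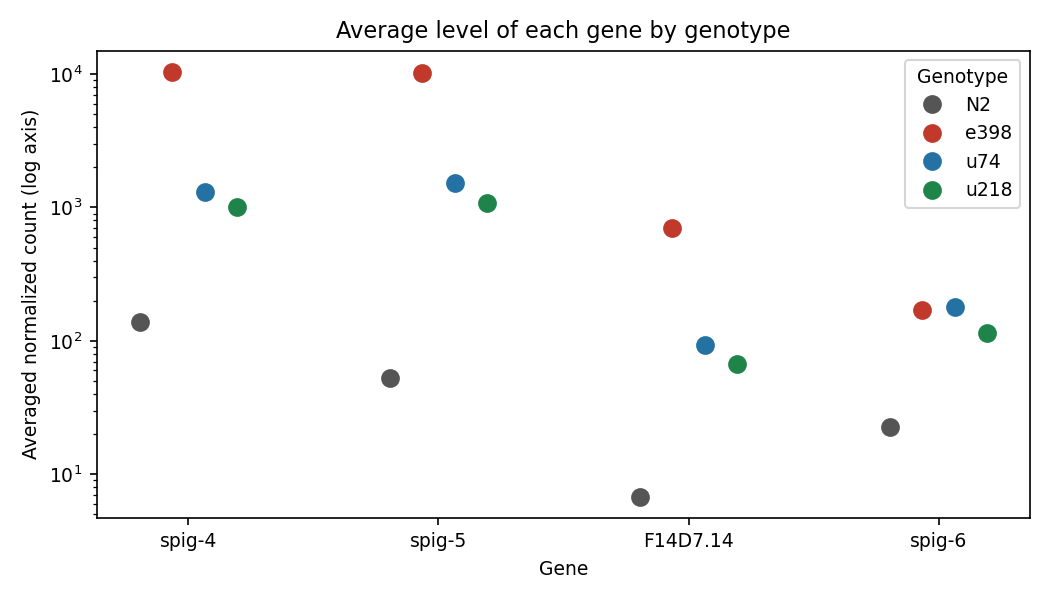
Average normalized count (log axis) of spig-4, spig-5, F14D7.14 and spig-6 in N2 (6 libraries), e398, u74 and u218 (3 libraries each); each point is 1 deposited average with no replicate error. N2 is the lowest point for every gene, and e398 is far above the other mutants for all but spig-6, where e398 (170) and u74 (181) nearly coincide.

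The single libraries behind these averages of spig-4 and spig-5 were not separated, but 1 bound holds. No single N2 library can exceed 6 times the N2 average, which is 831 for spig-4 and 317 for spig-5. All mutant averages of both genes lay above that bound. The same holds for F14D7.14 and, in e398 and u74, for spig-6. The u218 average of spig-6, 114.8, lay below its bound of 135. The bound uses the same averages that chose these genes, so it is a description and no test. A mutant average above it does not show that every library of that mutant was above it.

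F14D7.14 could be followed library by library. In the 6 N2 libraries it had a lowest value of 3.84, a median of 5.03 and a highest of 16.3 normalized counts, from 2 to 11 whole reads. The 3 e398 libraries gave 540, 664 and 917, from 370, 404 and 436 reads. Every e398 library was thus above every N2 library.

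The u74 libraries of F14D7.14 gave 104, 79.6 and 93.3 normalized counts, and the u218 libraries 61.9, 74.7 and 65.0. All 6 lay above the highest N2 library and below the lowest e398 library. The lowest u74 library was above the highest u218 library. The mean was 6.80 ± 4.77 in N2 (SD, n = 6). Over 3 libraries each it was 707 ± 192 (SD) for e398, 92.4 ± 12.3 for u74 and 67.2 ± 6.67 for u218. The log2 ratios to N2 were 6.50, 3.58 and 3.13.

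The wild-type reference of F14D7.14 was uneven. N2 library 5, at 16.3, stood above the next highest, 6.29, and rests on 8 reads. The 3 N2 libraries with size factors above 1 averaged 4.85 ± 1.28 and the 3 below 1 averaged 8.75 ± 6.62 (SD). The first set had 3.84, 6.29 and 4.41, and the second 5.65, 16.3 and 4.25. The higher mean of the second set, and the lower ratios against it, thus come from library 5. Against the low-factor set, which is like the e398 libraries in size factor, the e398 log2 ratio was 6.18. Against the high-factor set it was 6.92. The u74 ratio was 3.26 against the low-factor set and 4.00 against the high-factor set, and the u218 ratio was 2.81 and 3.54. All u74 libraries have factors above 1, but u218 library 3 has 0.831, so neither set matches all of u218. The labels name no sequencing batch, so whether size factor marks one was not tested.

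spig-6 had ratios of similar size in all mutants. Its averages were 22.6 normalized counts in N2, 170 in e398, 181 in u74 and 114.8 in u218, with log2 ratios of 2.86, 2.95 and 2.30. The e398 libraries gave 178, 187 and 145, the u74 libraries 210, 171 and 161, and the u218 libraries 127, 88.6 and 129. The e398 and u74 libraries overlap, and all u218 libraries lie below both. In wild type, 29 combinations of whole reads fit the average. In these, no N2 library exceeded 100.1, so all e398 and u74 libraries and u218 libraries 1 and 3 were above any possible N2 value.

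**Figure D2:**
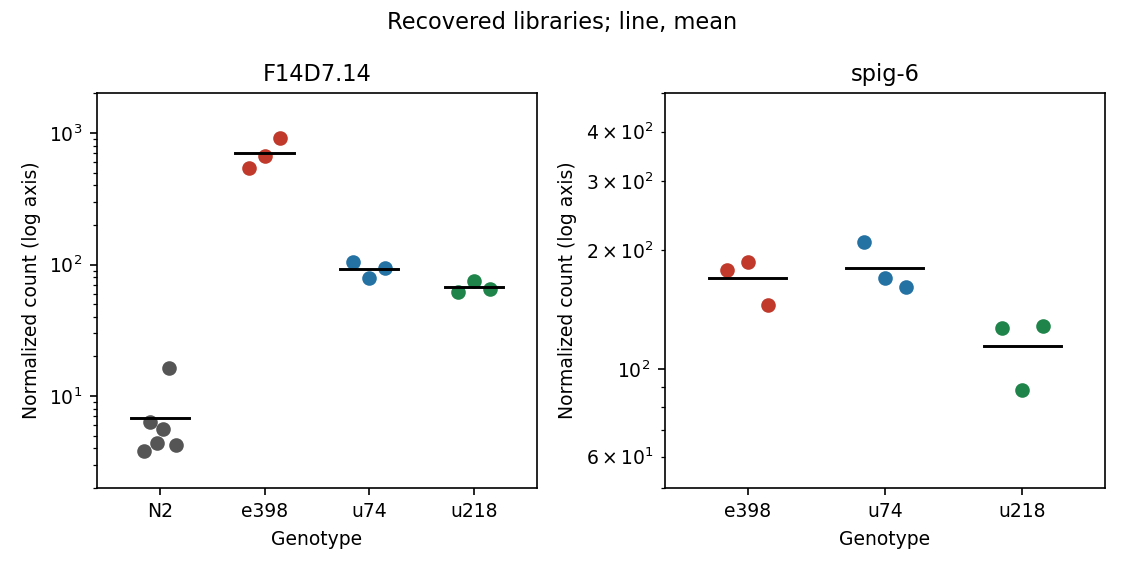
Normalized count (log axis) of F14D7.14 (left) and spig-6 (right) in each recovered library, 1 point a library, with the mean as a black line; the axes have different ranges, and spig-6 in N2 is not drawn because its reads could not be recovered. F14D7.14 falls into separate bands for N2 (3.84 to 16.3), u218 and u74 (61.9 to 104) and e398 (540 to 917), whereas spig-6 lies between 88.6 and 210 in every mutant library.

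All 4 genes were at least 2-fold higher in each mutant, as their choice implied. Among all genes considered, 11.4% were in e398 (1987 of 17398), 6.47% in u74 (1101 of 17004) and 10.4% in u218 (1784 of 17087). Only 0.167% were in every mutant at once (28 of 16782), and the members are 4 of those 28. Nothing is read from the members' count, since the same averages chose them. Ordered by the smallest of the 3 log2 ratios, spig-5 stood at rank 2 (4.32), F14D7.14 at 4 (3.13), spig-4 at 6 (2.86) and spig-6 at 9 (2.30). The last gene inside the 2-fold bar was F48C1.11, with a smallest ratio of 1.01, and the first outside was F57E7.4, with 0.97. The median log2 ratio of all genes was -0.05 for e398, -0.07 for u74 and -0.26 for u218. Relative to the u218 median, the u218 ratios were 3.12 for spig-4, 4.59 for spig-5, 3.39 for F14D7.14 and 2.56 for spig-6.

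Differences between mutants were not part of the choice and could be tested where reads were recovered. The test was limma with a trend on log2(normalized count + 1), fitted over all genes recovered in both mutants with a mean of at least 5, and Benjamini-Hochberg adjusted over all of them. F14D7.14 was lower in u74 than in e398 by a log2 difference of -2.90 ± 0.31 (SE; limma adjusted p = 0.000505). It was also lower in u218 than in e398, by -3.35 ± 0.35 (limma adjusted p = 0.0048). In both cases all 3 libraries lay below all 3 of e398. Calls in this direction were common: 37.4% of 8263 genes were lower in u74 than in e398 and 33.4% of 8383 were lower in u218. Relative to the median difference of all genes between the averages (-0.20 and -0.24), the differences of F14D7.14 were -2.70 and -3.11. Relative to the median of the genes tested by limma (-0.78 and -1.27), which leaves out abundant genes, they were -2.12 and -2.07. Without u218 library 3 the u218 difference was -3.32 (limma adjusted p = 0.00298), and without e398 library 2 it was -3.37 (limma adjusted p = 0.00476).

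spig-6 did not pass this test in any pair of mutants. Between u74 and e398 its log2 difference was 0.08 (95% interval -0.59 to 0.76; limma adjusted p = 0.83). Between u218 and e398 it was -0.58 (-1.51 to 0.35; limma adjusted p = 0.26). Relative to the median of the genes tested these differences were 0.86 and 0.70, so the sign of the second depends on the centring. Between u218 and u74 it was -0.66 (-1.34 to 0.02; limma adjusted p = 0.129), and without u218 library 3 it was -0.75 and passed (limma adjusted p = 0.0231). F14D7.14 differed between u218 and u74 by -0.45 (-1.19 to 0.29; limma adjusted p = 0.32). In that pair 17.0% of 7230 genes were lower in u218. The intervals of the differences that involve u218 reach beyond 2-fold, so they do not show equal levels.

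For spig-4 and spig-5 the mutants can be set side by side only as averages. spig-4 was 7.89 times as high in e398 as in u74 and 10.3 times as high as in u218, and spig-5 was 6.70 and 9.49 times as high. F14D7.14, with 7.65 and 10.5, had folds of about the same size. spig-6 had 0.942 and 1.48. In u74 over u218 the folds were 1.30 for spig-4, 1.42 for spig-5, 1.37 for F14D7.14 and 1.57 for spig-6.

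The proportions among the members, per kilobase of exon, set spig-6 apart again in e398. The level of spig-5 was 0.372 times that of spig-4 in N2, 0.959 in e398, 1.13 in u74 and 1.04 in u218. spig-4 was thus the more abundant of the pair in wild type, and the pair stood close to equal in each mutant. F14D7.14 was at 5.16% of the spig-4 level in N2 and at 7.16%, 7.37% and 6.98% in e398, u74 and u218. spig-4 was 7.30 times the level of spig-6 in N2, 8.66 times in u74 and 10.5 times in u218, but 72.5 times in e398. If copies share sequence, reads can be split among them by the counting, and how far that shaped these proportions was not tested.

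Within single libraries, F14D7.14 was 3.79, 4.42 and 7.89 times spig-6 per kilobase in e398. The same ratio was 0.620, 0.583 and 0.723 in u74 and 0.609, 1.05 and 0.630 in u218. The e398 libraries do not overlap with the others. An exact two-sided permutation test of the log2 ratio gave p = 0.1 for e398 against u74 and for e398 against u218, the smallest that 3 against 3 allows (adjusted over 3 pairs, p = 0.15). For u74 against u218 it gave an exact p = 0.6. Such a design cannot reach 0.05.

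The recovered members were steadier between replicates than the median gene of like level (50 to 1000 normalized counts). In u218 the coefficient of variation was 9.93% for F14D7.14 and 19.7% for spig-6, against a median of 41.4% over 4432 genes. In e398 it was 27.1% and 13.0% against 33.9%, and in u74 13.3% and 14.3% against 17.5%. Genes with a smaller coefficient than F14D7.14 made up 40.3% in e398, 35.4% in u74 and 8.08% in u218. For spig-6 these shares were 13.5%, 39.0% and 22.2%. The u218 median includes library 3. In u218 library 3 and e398 library 2, which stand apart for many genes, neither member was 4-fold away from its other libraries.

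The genes around the spig-4 group had ratios in both directions. Within 20 kb of either end lie 27 other annotated genes, of which 14 had enough counts in each comparison, though not the same 14 in all. Of these, 5 were higher and 2 lower in e398, 3 higher and 5 lower in u74, and 4 higher and 8 lower in u218. Their median log2 ratios were 0.40, -0.29 and -1.48. Over all genes considered, 11.4%, 6.47% and 10.4% were at least 2-fold higher in e398, u74 and u218, with median ratios of -0.05, -0.07 and -0.26. The share of all genes lower was not counted, so the lower counts have no such comparison. F14D7.6, the convergent neighbour of spig-4, averaged 1187 in N2, 1369 in e398, 1162 in u74 and 2798 in u218, with log2 ratios of 0.21, -0.03 and 1.24. ddn-3, the convergent neighbour of F14D7.14, had ratios of 0.77, -0.98 and -0.92. It was below 20 normalized counts in N2, u74 and u218, so it was counted only in e398. Between spig-4 and F14D7.14 lie 4 annotated pseudogenes, whose summed average was 0.541 in N2, 8.77 in e398, 0.742 in u74 and 0.335 in u218.

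Both genes that flank spig-6 averaged higher in every mutant, with log2 ratios in u218 of 0.97 for F57E7.4 and 0.85 for F57E7.2. F57E7.4, 560 bases away, averaged 13.7 in N2, 634 in e398, 44.2 in u74 and 27.8 in u218. F57E7.2, 360 bases away on the other side, averaged 10.5, 420, 58.5 and 19.7. Both lie on the minus strand, opposite to spig-6. In e398 the log2 ratios of these flanking genes, 5.43 and 5.20, were well above the 2.86 of spig-6.

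The flanking genes were uneven in some genotypes. F57E7.2 had 253, 890 and 116 normalized counts in the e398 libraries and 31.2, 26.8 and 1.20 in the u218 libraries. F57E7.4 had 42.8, 32.3 and 8.43 in u218. In u74 both were steadier, with 66.7, 65.7 and 43.2 for F57E7.2 and 39.0, 45.5 and 48.0 for F57E7.4. The coefficient of variation of F57E7.4 was 10.5% in u74 and 28.9% in e398, against 14.3% and 13.0% for spig-6. In u218 both flanking genes were lowest in library 3, where spig-6 had its highest u218 value. By limma, F57E7.4 was lower in u74 than in e398 by -3.78 ± 0.32 (SE; adjusted p = 0.00039). Of the 22 other genes within 20 kb of spig-6, 6 had enough counts in e398, and F57E7.4 and F57E7.2 were the 2 at least 2-fold higher; 0 were lower (median log2 ratio 0.75). In u74, 2 of 6 were higher and 1 lower (median 0.48), and in u218 0 of 5 were higher and 3 lower (median -1.93). The shares higher over all genes considered were 11.4% in e398, 6.47% in u74 and 10.4% in u218, and shares lower were not counted.

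**Figure D3:**
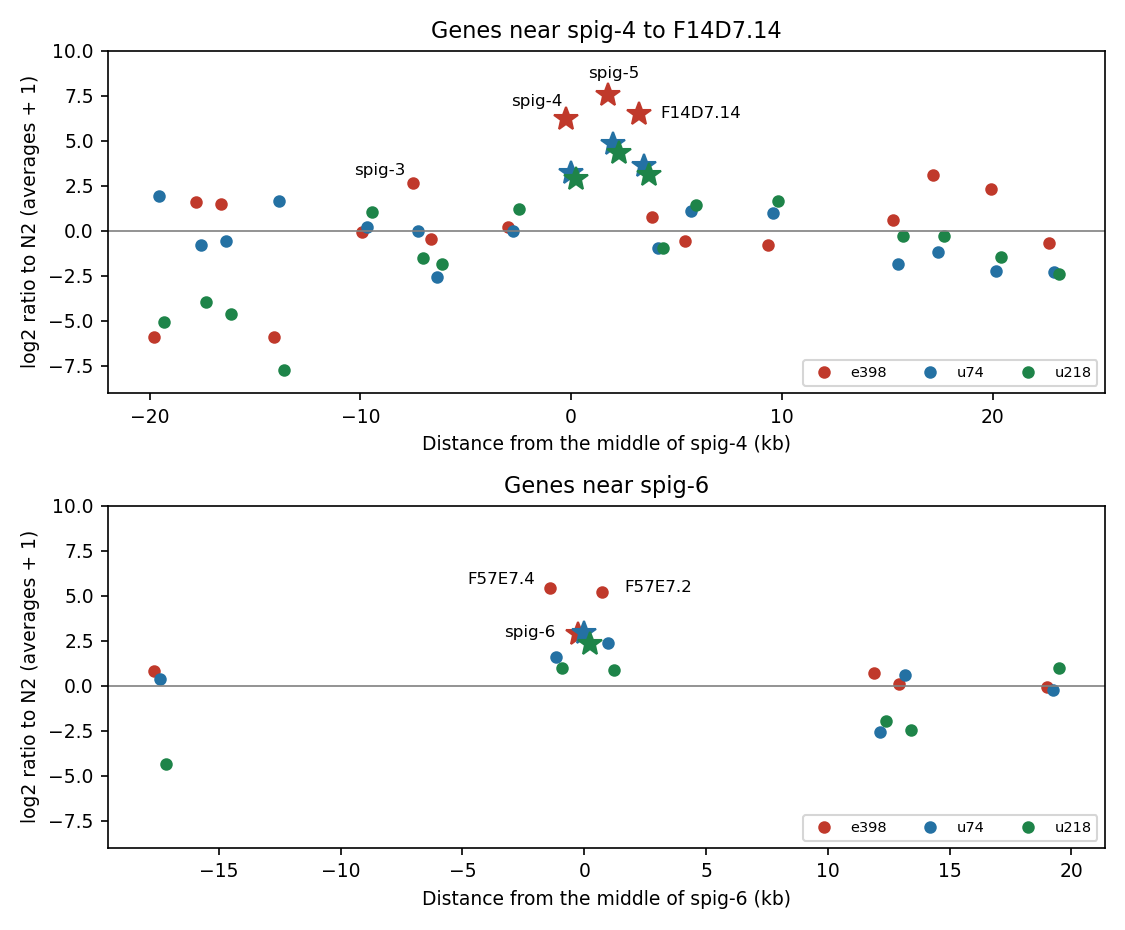
The log2 ratio to N2, from averages with 1 added, of genes at 20 or more normalized counts in any genotype, against distance in kb from the middle of spig-4 (upper) and of spig-6 (lower); stars are the described genes, circles other genes, and the 3 mutants are set 0.25 kb apart sideways so that points do not hide each other. In the upper panel the 3 stars of each mutant stand above all circles of that mutant, and in the lower panel the e398 points of F57E7.4 and F57E7.2 stand above spig-6.

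The other genes named spig had different ratios. The annotation holds 9 genes with this name, all on chromosome V. Of these, spig-4, spig-5 and spig-6 were chosen for being higher in every mutant, so the counts that follow are for the other 6. In e398, 3 of 6 were at least 2-fold higher and 0 lower, with a median log2 ratio of 1.51, beside 11.4% higher and a median of -0.05 among all genes. In u74, 0 of 5 with enough counts were higher and 3 lower (median -1.20, beside 6.47% higher and a median of -0.07 among all genes). In u218, 0 of 5 were higher and 2 lower (median -0.61, beside 10.4% higher and a median of -0.26). spig-8 was below 20 normalized counts in N2, u74 and u218 and was counted only in e398. Its log2 ratios of averages were 4.23, 1.11 and 2.11. On these low counts it too averaged at least 2-fold higher in every mutant. For this family also, the share of all genes lower was not counted.

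The closest named relative by position is spig-3, 6798 bases from spig-4. It averaged 54.5 in N2, 348 in e398, 54.1 in u74 and 18.5 in u218, with log2 ratios of 2.65, -0.01 and -1.51. Its e398 libraries were even, at 346, 297 and 400, but u218 library 3 (38.5) was above libraries 1 and 2 (8.05 and 8.92). By limma it was lower than in e398 both in u74, by -2.66 ± 0.30 (SE; adjusted p = 0.000583), and in u218, by -4.50 ± 0.68 (adjusted p = 0.00574).

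spig-8 was the least abundant of the family. Its N2 libraries ran from 0 to 10.6 with a median of 2.12, and its e398 libraries were 43.8, 46.0 and 149. In u74 it had 7.19, 15.8 and 2.06, and in u218 5.53, 7.80 and 39.7. The e398 libraries lie above all N2 libraries, while u74 and u218 overlap with N2. spig-7 had log2 ratios of 2.16, 0.15 and 0.62.

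The abundant members of the family behaved differently. spig-9 averaged 50336 in N2, 70616 in e398, 3059 in u74 and 5714 in u218, with ratios of 0.49, -4.04 and -3.14. spig-1 had ratios of 0.86, -1.43 and -0.61, and spig-10 0.13, -1.20 and -0.29. Per kilobase of exon, spig-9 at 113625 was the highest of the family in N2 and spig-8 at 8.98 the lowest. In wild type, spig-4 at 386 was in the middle of the order, and spig-5 at 143 and spig-6 at 52.8 were in its lower part. The e398 levels of spig-4 (28885) and spig-5 (27702) were near that of spig-1 (33133). These averages carry no replicate error, so neighbours in this order cannot be separated.

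**Figure D4:**
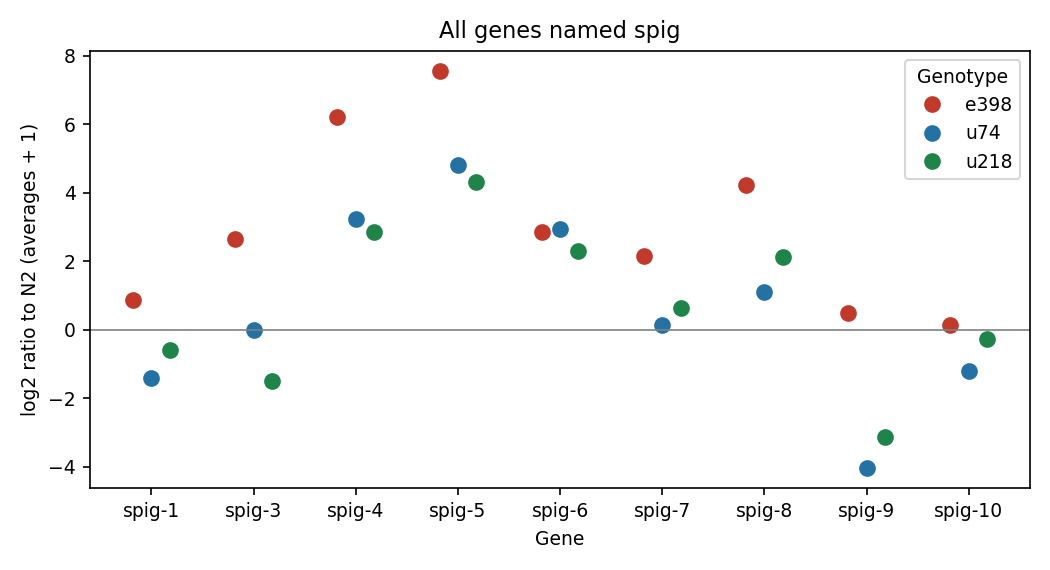
The log2 ratio to N2, from averages with 1 added, for the 9 genes named spig in e398, u74 and u218; each point is a ratio of 2 averages with no replicate error. spig-4, spig-5 and spig-6 are above 2 in every mutant, whereas spig-9 reaches -4.04 in u74.

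The genes whose 3 log2 ratios lay nearest to the median of the members (6.36, 3.41 and 2.99) were sought among 17767 genes by Euclidean distance in log2 units. The 6 nearest were C55A1.7 (distance 1.31), ins-20 (1.41), tsp-5 (1.85), F11A5.17 (1.87), C55A1.4 (2.13) and tsp-4 (2.40). C55A1.7, C55A1.4 and F11A5.17 lie on chromosome V. ins-20 encodes an insulin-like peptide, and tsp-4 and tsp-5 encode tetraspanins, membrane proteins with 4 spans in the membrane. F11A5.17 averaged 20.6 in N2, 1305 in e398, 204 in u74 and 48.2 in u218. Each of the others averaged at most 6.02 in N2, and C55A1.4 was listed at 0 there. The measure rests on 4 averages a gene, and spig-6, at 2.86 in e398, is itself farther from that median than the other members.

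Markers of stage and germline also differed with genotype. Of 22 sperm genes, 13 were higher and 3 lower in e398, 0 of either in u74, and all 22 were lower in u218; their summed averages were 114331 in N2, 334082 in e398, 130392 in u74 and 2375 in u218. Of 15 oocyte and eggshell genes, 12 were lower in e398, 15 higher in u74 and 15 lower in u218, with sums of 121113 in N2 and 36850.5, 344972 and 17629 in the mutants in that order. Of 9 yolk and adult genes, 2 were higher and 2 lower in e398, 7 higher in u74 and 9 lower in u218, and their sums were 493981, 291958, 1246710 and 4794. Of 16 moulting genes, 2 were higher in e398, 12 lower in u74, and 4 higher and 6 lower in u218, and their sums were 955920, 1812220, 161306 and 602851. Median log2 ratios in e398, u74 and u218 were 1.29, 0.36 and -5.88 for sperm, and -2.71, 1.48 and -2.61 for oocyte and eggshell genes. For yolk and adult genes they were -0.73, 1.30 and -7.08, and for moulting genes 0.08, -1.55 and 0.22. A sum weighs abundant genes most, so sum and median can differ. Among all genes considered, 11.4% were at least 2-fold higher in e398, 6.47% in u74 and 10.4% in u218, with medians of -0.05, -0.07 and -0.26. How many of all genes were lower was not counted, so the lower counts of these lists have only the medians beside them. No listed marker was at 0 in a mutant. The counts of each list differed between mutants. The part of stage or germline in the members' levels was not tested. In RNA of whole animals, fewer cells of a type and less RNA per cell cannot be told apart.

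Genes known to respond to infection or stress were also counted. The list held 26 names, which matched 28 genes of the table. In e398, 8 of 28 were higher and 1 lower (median log2 ratio 0.57); in u74, 2 of 27 were higher and 17 lower (median -1.18); and in u218, 5 of 27 were higher and 12 lower (median -0.39). Among all genes considered, the shares higher were 11.4%, 6.47% and 10.4%, and the medians -0.05, -0.07 and -0.26. Shares lower were not counted. The summed averages of the list were 270982 in N2, 438180 in e398, 106258 in u74 and 261543 in u218. Any part of infection or stress in the members' levels was not tested.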

How the data were processed

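The authors' deposited table gives a signal per gene and genotype: averaged normalized counts, by the table's name. Tools in the submitters' processing notes are DESeq2, DESeq, HTSeq and bedtools, none with a version. The aligner, build and counting annotation were not given in the sources used here. All 46926 identifiers matched WBcel235 (Ensembl release 115), which gave symbols and positions. No sequences were read.

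The members and gene lists were chosen with earlier results of these data known. Named genes were the members, other genes named spig, annotated genes within 20 kb (a part of which the text names), and the 6 nearest patterns. Ratios were log2((average + 1)/(average + 1)), with 20 normalized counts in either column required. Repeated steps among small values gave the size factors. All nonzero values below 1000 in the mutants and below 10 in N2 had a whole-read solution; 97.2% (e398), 86.3% (u74), 88.8% (u218) and 99.9% (N2) had exactly 1. Of values moved off their place, 5.20%, 33.4%, 27.5% and 1.33% had one. Only values with 1 solution were used. Genes above these limits could not enter limma 3.58.1 (R 4.3.3), which was tested on simulated data. P-values measure only the spread between these samples.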

Additional observations from a re-analysis of the deposited data

Results flagged for a closer look

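F14D7.14 in N2 library 5 had 16.3 normalized counts, set apart from the other 5 N2 libraries by 0.804 of the group's range, where 0.625 is the 95% limit for 6 samples. It rests on 8 whole reads. Without that library, the N2 mean of F14D7.14 was 4.89 ± 1.03 (SD, n = 5), and the log2 ratios to N2 were 6.91 in e398, 3.99 in u74 and 3.53 in u218.

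spig-8 in N2 library 6 had 10.6 normalized counts from 5 whole reads, with a gap of 0.703 of the range. About 1 in 20 groups would pass this limit by chance if values were normal with equal spread. Few reads divided by unlike size factors, 0.489 for library 5 and 0.471 for library 6, need not meet that. The rate for these values is therefore not known, and only 2 groups of N2 libraries were examined.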

How the results depend on the processing

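The 12 ratios of the members to N2 kept their direction with pseudocounts of 0.5 and 10, after recentring on the median of all genes and with equal column totals. The ratios of F14D7.14 moved by more than its library spread with a pseudocount of 10, to 5.42 in e398, 2.61 in u74 and 2.20 in u218, since its N2 average is below 10. Leaving out each of its libraries in turn, an alternative added after seeing the data, gave a range of 6.27 to 6.91 for e398, 3.48 to 3.99 for u74 and 3.02 to 3.53 for u218. The 28 genes higher in every mutant became 63 with no filter on low values, 21 at 50 normalized counts, 22 with a pseudocount of 10 and 31 after recentring; all 4 members were among them each time.

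Between mutants, F14D7.14 stayed past the threshold against e398 with another pseudocount, limma voom, no filter and each library left out. The left-out range was -3.07 to -2.69 for u74 against e398 (limma adjusted p from 0.000206 to 0.00431), -3.52 to -3.14 for u218 against e398 (0.00298 to 0.0314) and -0.55 to -0.36 for u218 against u74 (0.163 to 0.545). For spig-6 it was -0.0288 to 0.16 for u74 against e398, changing sign to -0.0288 without u74 library 1 and to -0.0260 without e398 library 3 (limma adjusted p = 0.957 and 0.946). It was -0.69 to -0.40 for u218 against e398 and -0.75 to -0.49 for u218 against u74. The last reached limma adjusted p = 0.0231 without u218 library 3; the cause was not tested. Over all genes, the 2800 called lower in u218 than in e398 became 1264 without u218 library 2, 1319 without e398 library 1, 1451 without u218 library 1 and 1503 without e398 library 3. The 1230 called lower in u218 than in u74 became 654, 491 and 545 without u74 library 1, 2 or 3, and 726 and 649 without u218 library 1 or 2. They were 1790 without u218 library 3.

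No paired analysis was possible because the deposited columns are averages that carry no replicate numbers. Depth limits the N2 values of F14D7.14, which rest on 2 to 11 reads.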
